A study of Mus musculus with 60 samples.

Results

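The HoxB genes are the homeobox transcription factor genes of the Hox cluster on mouse chromosome 11. The 10 protein-coding members, Hoxb1 to Hoxb9 and Hoxb13, were chosen by gene name from the 55357 genes of a count table of sorted gut epithelium. The study measured polyA RNA of epithelial cells from 8-week-old mice of the Lgr5-2A-eGFP line, in which eGFP is made together with Lgr5, the R-spondin receptor of stem cells at the crypt base. Proximal, middle and distal parts of the small intestine and proximal and distal parts of the colon were each separated by GFP level into a high, an intermediate and a negative fraction. That gave 15 groups with 4 libraries per group, 60 in all, and all groups carried the eGFP allele and were of the same age. The sort collected at least 30000 cells for a colon fraction and 50000 for a small intestinal one. The labels do not say that replicates came from separate animals, so the p-values measure the spread between these libraries.

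Hox genes encode factors that give cells their position along the head-to-tail axis of the embryo. Within a cluster the genes lie in the order in which they are expressed along that axis: genes at the 3′ end (Hoxb1) act nearest the head, and those at the 5′ end (Hoxb13) nearest the tail. In the gut, Hox genes of the endoderm and of the surrounding mesoderm are known for marking regions, and parts of this code persist in the adult epithelium.

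In the reference annotation (GENCODE M21, build GRCm38) the cluster runs on chromosome 11 from 96194316 to 96368256, which is 173941 bases, and all 10 members lie on the plus strand. Hoxb13 comes first, at 96194316 to 96197447. It is followed by a gap of 74009 bases that holds the long noncoding RNA gene Gm53 and the microRNA gene Mir196a-1. Hoxb9 (96271457 to 96276595) and Hoxb8 (96281905 to 96285315) come next, then Hoxb7, Hoxb6, Hoxb5, the microRNA gene Mir10a, Hoxb4, Hoxb3, Hoxb2 and Hoxb1. The antisense genes Hoxb5os and Hoxb3os overlap exons of Hoxb5 and of Hoxb3 and Hoxb2. The strand setting of the counting is not given, so reads of overlapping sense and antisense exons cannot be told apart.

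Sequences from RefSeq (build GRCm38.p6) are shown for the place where the regional pattern broke within the cluster, the side of Hoxb8. Promoter windows, 250 bases before to 50 after the gene start, were at hand for 3 of the 10 members: Hoxb8, Hoxb4 and Hoxb1. Capitals mark the letters TTTAT, a core of the sites bound by caudal and posterior Hox factors, and ATAAA, the same letters on the other strand. The Hoxb8 window held 6 matches, 5 forward and 1 reverse, against 0 in the Hoxb4 and Hoxb1 windows. As many as 6 were found in 0.502% of 32851 promoter windows of that length, and 13143 windows held at least 1. The base composition of the windows was not taken into account. A match is a string of letters and not a binding site. No window was at hand for Hoxb9, on the other side of the break, so matches were not compared across it. Hoxb4, without a match, was like Hoxb8 highest in the proximal colon and low in the distal colon. A link between matches and levels was not tested.
Hoxb8 promoter, chr11:96281655-96281954, plus strand: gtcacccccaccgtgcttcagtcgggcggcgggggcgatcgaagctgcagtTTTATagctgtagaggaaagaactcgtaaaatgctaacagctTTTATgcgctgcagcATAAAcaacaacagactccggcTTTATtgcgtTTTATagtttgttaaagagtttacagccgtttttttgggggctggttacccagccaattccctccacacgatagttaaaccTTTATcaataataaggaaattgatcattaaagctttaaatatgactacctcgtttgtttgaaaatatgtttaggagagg
Hoxb4 promoter, chr11:96318017-96318316, plus strand: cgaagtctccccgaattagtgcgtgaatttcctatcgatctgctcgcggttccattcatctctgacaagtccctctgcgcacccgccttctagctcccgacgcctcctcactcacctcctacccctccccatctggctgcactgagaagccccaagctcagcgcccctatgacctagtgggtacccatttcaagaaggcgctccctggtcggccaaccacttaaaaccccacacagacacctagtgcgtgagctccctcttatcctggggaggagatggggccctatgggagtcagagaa
Hoxb1 promoter, chr11:96365508-96365807, plus strand: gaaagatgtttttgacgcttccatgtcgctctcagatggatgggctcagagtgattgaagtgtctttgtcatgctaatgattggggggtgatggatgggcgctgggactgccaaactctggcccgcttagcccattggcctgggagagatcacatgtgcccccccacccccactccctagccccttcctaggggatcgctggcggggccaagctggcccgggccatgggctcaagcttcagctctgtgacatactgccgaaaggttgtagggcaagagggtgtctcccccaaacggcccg

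The cluster also encodes microRNAs, of which miR-196a is known in the mouse to direct cleavage of Hoxb8 mRNA. Their mature forms are not measured by polyA libraries and are shown here for their pairing with a member. Capitals mark the seed, bases 2 to 8, and in the Hoxb8 site the 7 bases opposite it. The best-paired window of miR-196a-5p in Hoxb8 lay in its 3′ UTR, with 21 Watson-Crick pairs and 1 G:U pair over 22 bases. The G:U pair lay among the 7 capital bases, so this site is not a full Watson-Crick match to the seed. In each of the other 9 members the best window held 13 or 14 Watson-Crick pairs. A full match to the 7 seed bases of miR-196a-5p was not particular to Hoxb8. Coding transcripts of Hoxb1, Hoxb6, Hoxb7 and Hoxb8 held at most 1 each, and the other members none. The best window of miR-10a-5p in any member held 15 of 23, in Hoxb5. Full matches to its seed were found in Hoxb3 and Hoxb5.
mmu-miR-196a-5p, chr11:96265187-96265208, plus strand: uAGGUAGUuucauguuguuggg
Hoxb8 site, chr11:96284888-96284909, plus strand: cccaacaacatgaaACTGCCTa
mmu-miR-10a-5p, chr11:96317186-96317208, plus strand: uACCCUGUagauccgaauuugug

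The libraries held 55411864 to 113917959 counts in all (median 81230235). Levels are CPM, counts scaled to a common library size, and values per kilobase of gene length (RPKM) are used where different genes are set side by side. Lgr5 averaged 203 to 544 CPM in the GFP-high groups and 2.67 to 12.2 CPM in the GFP-negative groups. The summed CPM of 4 colon identity genes was 671 to 6569 in colon libraries and 186 to 525 in small intestinal libraries. That of 4 small intestine identity genes overlapped, at 26.3 to 290 CPM in colon and 149 to 5881 CPM in small intestinal libraries. All 10 epithelial markers were present, at a summed 7942 to 31130 CPM. The summed level of 10 leukocyte markers was 2.85 to 43.1 CPM in GFP-high, 3.17 to 45.3 CPM in GFP-intermediate and 116 to 1851 CPM in GFP-negative libraries. Summed stromal markers reached 32.9 CPM at most. Summed enteric neuron and glia markers were 242 to 448 CPM in colon and 294 to 752 CPM in small intestinal libraries. In sorted bulk samples, fewer cells of a type and less RNA per cell cannot be told apart.

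The HoxB genes were off or barely detected in the proximal and middle small intestine, on from Hoxb3 to Hoxb9 in the distal small intestine and proximal colon, and reduced to Hoxb9 and Hoxb13 in the distal colon. In GFP-high cells the summed RPKM of the 10 members averaged 0.611 ± 0.378 in the proximal, 0.690 ± 0.546 in the middle and 38.3 ± 11.7 in the distal small intestine, and 153 ± 9.01 in the proximal and 137 ± 16.0 in the distal colon (SD, n = 4 each). At 1 CPM or more in all 4 libraries, no member was present in the proximal or middle small intestine in any fraction. In GFP-high cells the distal small intestine had 7 members at that level (Hoxb3 to Hoxb9), the proximal colon 8 (with Hoxb13) and the distal colon 2 (Hoxb9 and Hoxb13). Hoxb9 was at that level in all 3 fractions of all 3 distal parts, and no other member was.

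**Figure D1:**
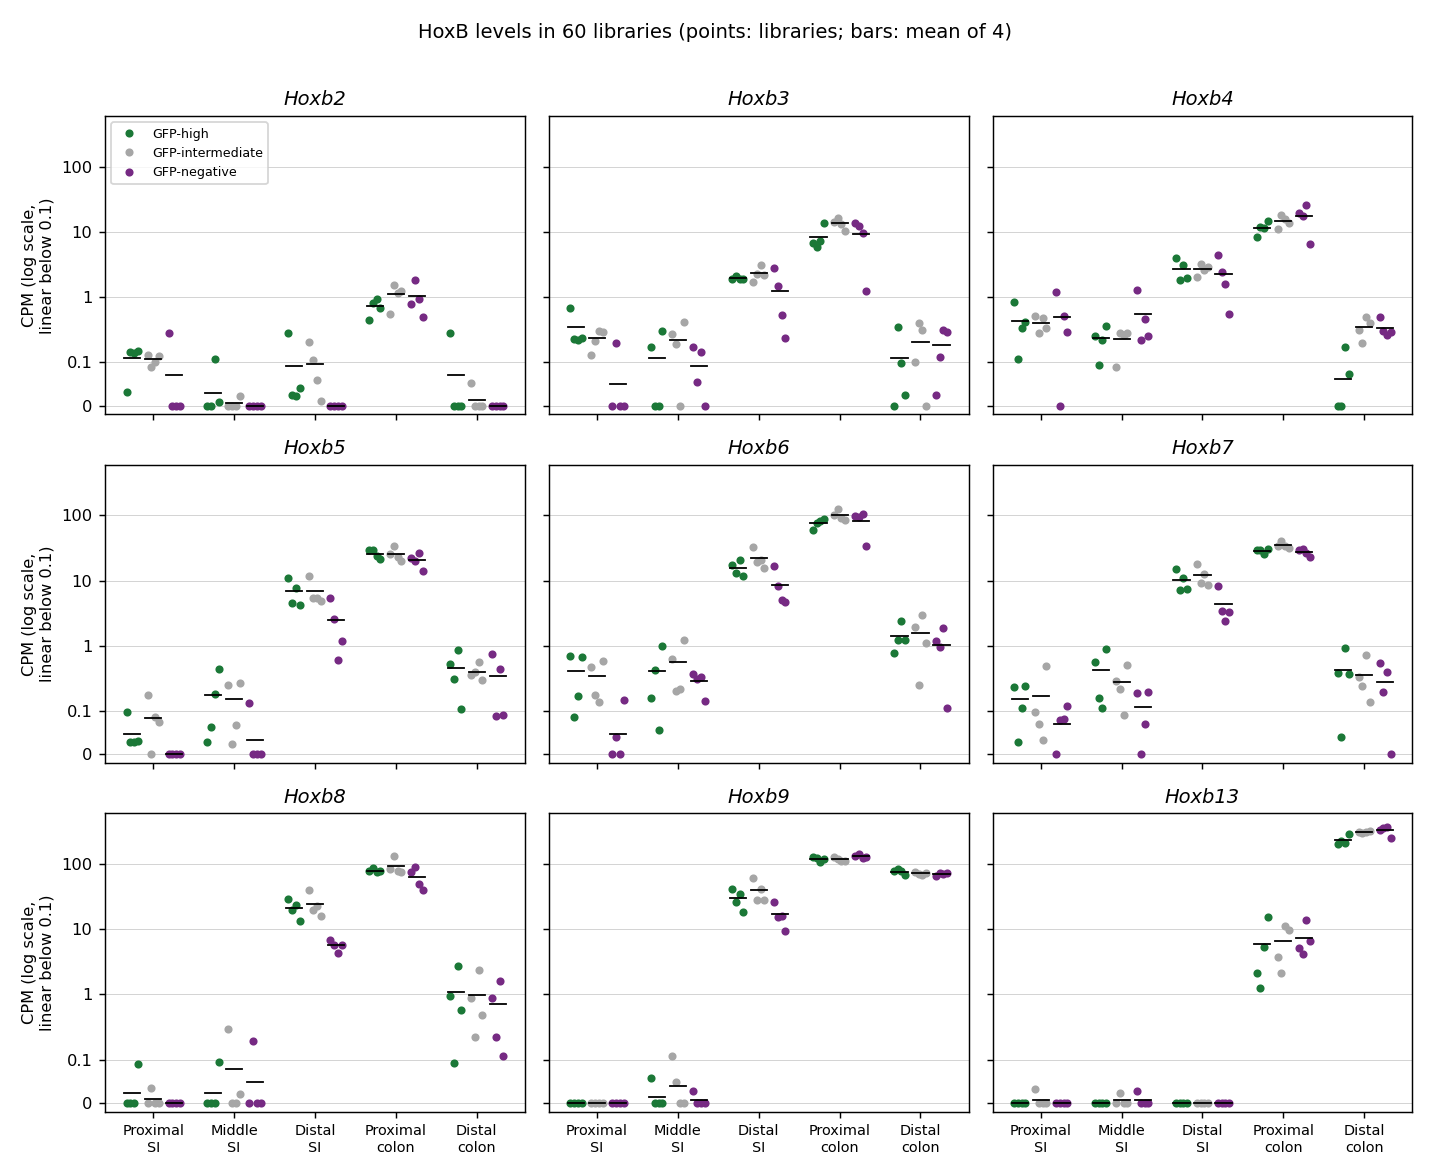
Level of 9 HoxB genes in each of the 60 libraries, in CPM on a log axis that is linear below 0.1, by gut part from proximal to distal; points are libraries, coloured by GFP fraction, and bars are means of 4. Hoxb3 to Hoxb8 peak in the proximal colon, Hoxb9 stays between 65.9 and 140.5 CPM in every colon library, and Hoxb13 lies between 204 and 368 CPM in the distal colon.

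Hoxb9, which with its paralogs patterns the thoracic region and the mammary gland, was the member present in the most groups at 1 CPM or more. It had 0 counts in all 12 proximal small intestinal libraries and at most 0.113 CPM in the middle part. In GFP-high cells it had 40.9, 26.1, 35.2 and 18.1 CPM in the distal small intestine. Its levels were 129, 124, 108 and 118 CPM in proximal colon libraries and 78.3, 84.5, 77.2 and 67.2 CPM in the distal colon. The 3 parts did not overlap in any fraction: the proximal colon was highest, the distal colon next and the distal small intestine lowest.

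Hoxb13, the gene nearest the tail end, acts in the tail bud and the prostate. It had 204, 224, 208 and 292 CPM in the distal colon GFP-high libraries, against 2.16, 1.26, 5.27 and 15.3 CPM in the proximal colon. Every distal colon library lay above every proximal colon library, also in the GFP-intermediate cells (304 to 319 against 2.12 to 11.03 CPM) and in the GFP-negative cells (256 to 368 against 4.14 to 13.8 CPM). In the small intestine it had 6 counts in all, spread over 3 of 36 libraries. Distal over proximal colon, Hoxb13 was 38.4-fold higher in GFP-high cells (log2 difference 5.26 ± 0.55 SE, adjusted p = 1.27e-08), and the log2 difference was 6.31 without proximal colon replicate 4, its highest proximal library.

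Hoxb8, known in the mouse for roles in the spinal cord and in blood and microglial cells, marked the middle of the pattern. In GFP-high cells it had 28.7, 19.9, 23.6 and 13.3 CPM in the distal small intestine. It had 78.5, 86.5, 74.4 and 78.1 CPM in proximal colon libraries and 0.948, 0.0912, 2.72 and 0.581 CPM in the distal colon. The 3 parts did not overlap, and within the distal colon replicate 3 was highest in all 3 fractions. The promoter window and the paired 3′ UTR site printed above belong to this gene, the nearest to Hoxb9 among those low in the distal colon.

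Hoxb7, used widely for its promoter in the ureteric bud, Hoxb6, expressed in lateral plate mesoderm, and Hoxb5, a marker of long-term blood stem cells in the mouse, followed the course of Hoxb8. In GFP-high cells Hoxb7 averaged 10.1 ± 3.72 CPM in the distal small intestine, 29.0 ± 2.16 in the proximal and 0.425 ± 0.364 in the distal colon (SD, n = 4 each). Hoxb6 averaged 15.6 ± 3.98 CPM in the first, 76.7 CPM (library range 60.1 to 88.3) in the second and 1.41 ± 0.698 CPM in the last of these parts. Hoxb5 averaged 6.84 ± 3.12, 26.1 ± 3.96 and 0.449 ± 0.318 CPM. For each of these genes the proximal colon was highest in every fraction, with no overlap with the next part.

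Hoxb4, known for the expansion of blood stem cells, and Hoxb3, a hindbrain and thyroid gene, had lower levels. The order of the distal small intestine and the colon parts was the same. Hoxb4 averaged 2.74 ± 1.02 CPM in the distal small intestine, 11.6 ± 2.56 in the proximal and 0.0619 ± 0.0828 in the distal colon in GFP-high cells. Hoxb3 averaged 1.96 ± 0.0827, 8.47 ± 3.61 and 0.119 ± 0.161 CPM. In GFP-negative cells Hoxb3 overlapped between the proximal colon (1.25 to 13.9 CPM) and the distal small intestine (0.233 to 2.80 CPM). Hoxb2, which acts in hindbrain segments and the facial nerve, reached 0.722 ± 0.213 CPM in the proximal colon GFP-high cells, and its highest library anywhere was 1.86 CPM. Hoxb1, the hindbrain gene of the head-side end, had 38 counts over 4 of the 60 libraries, 24 of them in replicate 3 of proximal colon GFP-negative, and was not tested. The other 9 members passed the filter on low counts.

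Per length, the makeup of the cluster's RNA was alike in the distal small intestine and the proximal colon and different in the distal colon. In the distal small intestine GFP-high cells Hoxb9 made up 30.3% ± 1.94 of the summed RPKM, Hoxb8 21.2% ± 1.85, Hoxb6 21.1% ± 3.00 and Hoxb7 17.0% ± 2.20 (SD, n = 4). In the proximal colon these shares were 30.4% ± 2.88, 19.7% ± 1.26, 25.4% ± 3.28 and 12.3% ± 0.580. The library ranges of the Hoxb7 share did not overlap between these parts, and no share was tested. In the distal colon Hoxb13 made up 76.6% ± 4.26 and Hoxb9 22.2% ± 3.91 in GFP-high cells. In GFP-negative cells of that part the shares of Hoxb13 and Hoxb9 were 83.7% ± 2.47 and 15.6% ± 2.79.

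**Figure D2:**
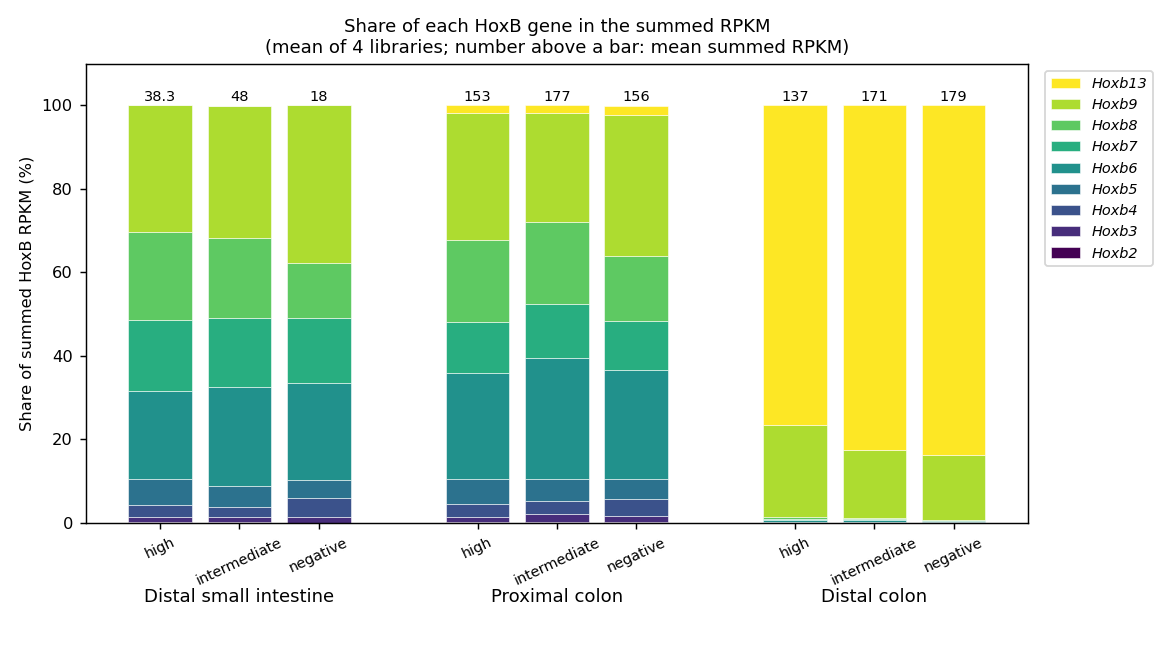
Stacked bars give the mean share of each HoxB gene in the summed HoxB RPKM, in percent, for the 3 GFP fractions of the distal small intestine, proximal colon and distal colon; the number above a bar is the mean summed RPKM. Hoxb9, Hoxb8, Hoxb7 and Hoxb6 fill most of the bars of the first 2 parts, and Hoxb13 makes up 76.6% to 83.7% in the distal colon.

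Along the colon, Hoxb3 to Hoxb8 were lower and Hoxb13 was higher in the distal than in the proximal part of GFP-high cells. Of 9 members tested 7 were called, 1 higher and 6 lower, where 7.8% of all 23360 genes were called, 3.74% higher and 4.05% lower. Their median log2 difference was -5.85, against 0 over all genes. The log2 difference was -6.18 ± 0.75 for Hoxb8 (SE, adjusted p = 2e-08), -5.77 ± 0.67 for Hoxb6 (adjusted p = 5.51e-09) and -7.47 ± 0.82 for Hoxb4 (adjusted p = 1.12e-09). For Hoxb7, Hoxb5 and Hoxb3 it was -6.07 ± 0.73, -5.85 ± 0.74 and -6.16 ± 1.07 (adjusted p = 1.25e-08, 4.79e-08 and 2.84e-05). None of these 6 genes overlapped between the parts. The low values of the distal colon rested on few counts, and 1 library could move the differences. Hoxb4 had 22 counts over the 4 distal colon GFP-high libraries, and its difference was -8.80 without replicate 3. Hoxb3 came to -7.61 without replicate 2, and Hoxb8 and Hoxb7 to -7.18 and -6.78 without replicate 3.

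Hoxb9 stood beside Hoxb8 in the cluster and moved far less. It averaged 76.8 ± 7.19 CPM in the distal and 119.9 ± 9.11 CPM in the proximal colon of GFP-high cells (SD, n = 4), and the libraries did not overlap. The log2 difference was -0.64 ± 0.27 with an adjusted p of 0.151, which missed the threshold. The call was made in a fit of the compared groups alone (adjusted p = 0.0035) and with edgeR's newer quasi-likelihood method (adjusted p = 0.0421). In GFP-negative cells the difference of Hoxb9 was -0.89 ± 0.27 (adjusted p = 0.0181), with 65.9 to 73.5 CPM in the distal and 126 to 141 CPM in the proximal colon.

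Hoxb2 had 24 counts in distal colon GFP-high, all in replicate 1, and 282 in the proximal colon (log2 difference -3.31 ± 1.28, adjusted p = 0.115). In the fit with the replicate block its difference was -4.42 and called (adjusted p = 0.0259), and without that library it was -8.86 (adjusted p = 0.00186).

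In the GFP-negative cells all 9 members tested were called between the colon parts, 1 higher and 8 lower, where 13.6% of all genes were called, 6.39% higher and 7.17% lower. Hoxb13 was higher in the distal part by 5.47 ± 0.56 (adjusted p = 5.13e-09). The log2 differences of Hoxb8, Hoxb7 and Hoxb6 were -6.52, -6.60 and -6.32, and those of Hoxb5, Hoxb4 and Hoxb3 -5.92, -5.67 and -5.62. Without distal colon GFP-negative replicate 3 that of Hoxb8 was -7.33, and without replicate 1 that of Hoxb5 was -6.66. Hoxb2 had 0 counts in the distal and 314 in the proximal part, at least 30-fold lower against a floor of 3 counts per library. Summed leukocyte markers in these groups were 116 to 353 CPM in the distal and 156 to 1234 CPM in the proximal colon. Summed enteroendocrine markers were 416 to 851 CPM in the distal and 3833 to 11570 CPM in the proximal colon, without overlap. The part of these cells in the result was not tested. In GFP-high cells, for which the differences are given above, the leukocyte sums were 2.85 to 7.41 against 5.10 to 13.7 CPM and the enteroendocrine sums 97.8 to 121 against 111 to 376 CPM.

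Along the small intestine, the genes from Hoxb4 to Hoxb9 came on in the distal part. In GFP-high cells 6 of 9 members were higher in the distal than in the proximal part and 0 lower, where 11.8% of all genes were called, 6.39% higher and 5.42% lower. Hoxb9 had 9777 counts in the distal and 0 in the proximal libraries, at least 673-fold higher. Hoxb8 had 6928 counts against 6, which all came from proximal replicate 4. Its difference of 9.81 ± 1.05 (adjusted p = 1.09e-09) became 13.75 without that library, where the other side is at 0.

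Hoxb7, Hoxb6 and Hoxb5 were higher in the distal part by 6.06 ± 0.77, 5.27 ± 0.69 and 7.20 ± 0.87 on the log2 scale (SE, adjusted p = 4.68e-08, 1.01e-07 and 2.06e-08), and that of Hoxb5 was 7.82 without proximal replicate 1. Hoxb4 was higher by 2.69 ± 0.65 (adjusted p = 0.00315), at 2.74 against 0.426 CPM. Hoxb3 averaged 1.96 CPM in the distal and 0.345 CPM in the proximal part without overlap, and its difference of 2.51 ± 0.91 missed the threshold (adjusted p = 0.0593). It was called in a fit of the compared groups alone (adjusted p = 0.00122) and with the newer method (adjusted p = 0.00318). The libraries of Hoxb2 overlapped, at 0.0926 and 0.116 CPM (adjusted p = 0.928), and Hoxb13 had 0 counts on both sides.

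In GFP-negative cells 8 of 9 members were called between the distal and the proximal small intestine, 7 higher and 1 lower, where 15.6% of all genes were called, 6.67% higher and 8.9% lower. Hoxb9, Hoxb8 and Hoxb5 were at least 360-fold, 120-fold and 52.5-fold higher in the distal part, against 0 counts in the proximal part. Without distal replicate 1 the limit for Hoxb5 was 31.2-fold. Hoxb7, Hoxb6 and Hoxb3 were higher by 5.96 ± 0.82, 7.501 ± 0.88 and 4.87 ± 1.13 on the log2 scale (SE). Hoxb6 came to 9.49 without proximal replicate 4, and Hoxb3 to 4.11 without distal replicate 1 and 9.67 without proximal replicate 2. The call of Hoxb3 ended with all libraries numbered 1 left out (adjusted p = 0.0508) and in a fit of the compared groups alone (adjusted p = 0.101). Hoxb4 was higher by 2.15 ± 0.64 (adjusted p = 0.0136); without distal replicate 1 its adjusted p was 0.0979, without proximal replicate 4 it was 0.0504, in a fit of the compared groups alone it was 0.3, and without proximal replicate 1 the difference was 3.02. Hoxb2, the member called lower, had 0 counts in the distal and 19 in the proximal part, all in 1 library, and lost the call in the fit with the replicate block (adjusted p = 0.0787) and without any single distal library (adjusted p = 0.0758 to 0.0843).

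**Figure D3:**
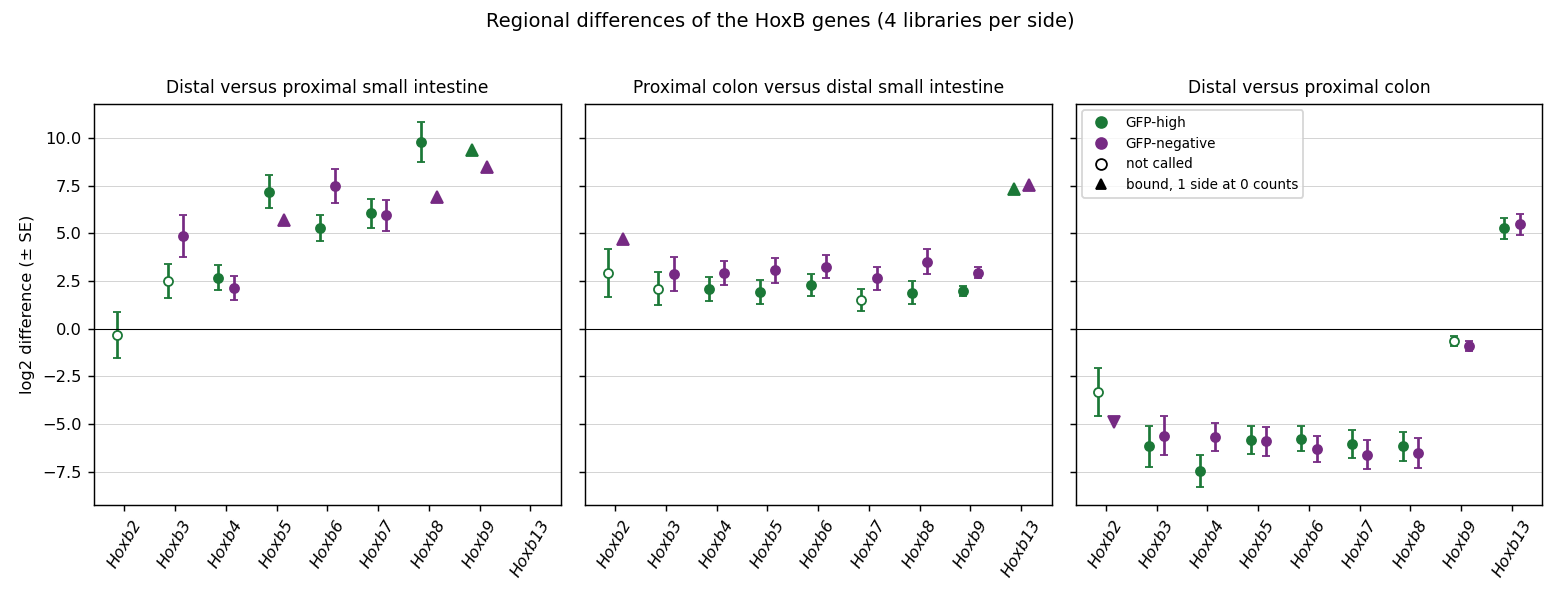
Log2 difference (± SE, 4 libraries per side) of the HoxB genes between neighbouring or end parts, in GFP-high and GFP-negative cells; filled circles were called, open circles were not, and triangles are bounds where 1 side had no counts. Members without counts on both sides, or with a bound under 10-fold, are not drawn. In the distal against the proximal colon Hoxb3 to Hoxb8 lie between -5.62 and -7.47, Hoxb9 at -0.64 and -0.89 and Hoxb13 at 5.26 and 5.47.

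Across the border of the organs, the proximal colon had more HoxB RNA than the distal small intestine. In GFP-high cells 6 of 9 members were higher and 0 lower, where 23.9% of all genes were called, 12.2% higher and 11.7% lower. Hoxb9 averaged 119.9 ± 9.11 CPM in proximal colon cells and 30.05 ± 10.03 CPM in the distal small intestine, a log2 difference of 2.00 ± 0.27 (adjusted p = 1.87e-07). Hoxb6 and Hoxb4 were higher by 2.30 ± 0.57 and 2.09 ± 0.61 (adjusted p = 0.00162 and 0.0084). Hoxb13 had 2683 counts against 0, at least 160-fold higher, and at least 77.1-fold without proximal colon replicate 4.

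Hoxb8 and Hoxb5 were higher by 1.89 ± 0.61 and 1.93 ± 0.61 (adjusted p = 0.0177 and 0.0154). Both calls ended when distal small intestine replicate 4 was left out (adjusted p = 0.0597 and 0.0541), that of Hoxb5 also without replicate 2 (adjusted p = 0.0556), and that of Hoxb8 by the DESeq2 Wald test (adjusted p = 0.204). Hoxb7 averaged 29.0 against 10.1 CPM with no overlap, and its difference of 1.52 ± 0.59 missed the threshold (adjusted p = 0.0534). The fit with the replicate block called it (1.59, adjusted p = 0.0309), and also Hoxb2 (3.70, adjusted p = 0.0249, against 2.95 ± 1.25 and 0.0844 without the block). Both were called as well without distal small intestine replicate 1, Hoxb7 at 1.78 (adjusted p = 0.0469) and Hoxb2 at 4.56 (adjusted p = 0.0263). Hoxb3 averaged 8.47 against 1.96 CPM with no overlap (2.11 ± 0.86, adjusted p = 0.0673). In a fit of the compared groups alone and with the newer method all 9 members were called, with adjusted p of 0.000137 and 1.79e-05 for Hoxb3, 0.000509 and 1.19e-05 for Hoxb7, and 0.0283 and 0.000682 for Hoxb2.

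In GFP-negative cells all 9 members tested were higher in the proximal colon, where 35.2% of all genes were called, 20.4% higher and 14.7% lower. Hoxb9 was higher by 2.95 ± 0.29 on the log2 scale (adjusted p = 1.65e-11), with 126 to 141 CPM against 9.56 to 26.4 CPM. Hoxb8, Hoxb6 and Hoxb5 were higher by 3.51 ± 0.66, 3.27 ± 0.59 and 3.07 ± 0.64. Hoxb7, Hoxb4 and Hoxb3 were higher by 2.65 ± 0.62, 2.94 ± 0.63 and 2.87 ± 0.89, and the libraries of Hoxb3 overlapped. Without distal small intestine replicate 1, Hoxb5 and Hoxb3 came to 3.82 and 3.63. Hoxb13 and Hoxb2 were at least 188-fold and 25.9-fold higher, against 0 counts in the distal small intestine. The whole leukocyte list summed to 156 to 1234 CPM in proximal colon libraries and 311 to 1287 CPM in the distal small intestine of these cells. The enteroendocrine list, all 10 markers detected, summed to 3833 to 11570 CPM in proximal colon libraries and 309 to 767 CPM in the distal small intestine, and the part of these cells in the result was not tested. In GFP-high cells its sums overlapped, at 111 to 376 CPM and 72.2 to 210.5 CPM.

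Over the whole organs, 6 of 9 members were higher in colon than in small intestine in GFP-high cells, where 42.2% of all genes were called, 20.9% higher and 21.3% lower. These were Hoxb13, Hoxb9, Hoxb8, Hoxb7, Hoxb6 and Hoxb5. Hoxb13 averaged 119 CPM over the colon groups and 0 over the small intestinal groups, and Hoxb9 98.3 and 10.02 CPM, without overlap. Hoxb8 averaged 40.2 and 7.13 CPM, with overlap, since its distal colon libraries lay below those of the distal small intestine. In GFP-negative cells 8 of 9 were higher, where 50.5% of all genes were called, 28.1% higher and 22.4% lower. Hoxb2 was not called in either fraction (adjusted p = 0.0818 in GFP-high cells), but in GFP-high cells it was called without distal small intestine replicate 1 (adjusted p = 0.0235) or middle replicate 3 (adjusted p = 0.0136), and Hoxb3 without middle replicate 4 (adjusted p = 0.0398).

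Between GFP-high and GFP-negative cells of a gut part, 0 to 4 of the 9 members tested were called. In the distal small intestine 4 of 9 members were called, all with more RNA in GFP-high cells, where 52% of all genes were called, 25.7% higher and 26.2% lower. Hoxb8 had 28.7, 19.9, 23.6 and 13.3 CPM in GFP-high cells, against 6.82, 5.64, 4.40 and 5.71 CPM in GFP-negative cells. The fractions did not overlap, and the log2 difference was 1.92 ± 0.62 (SE, adjusted p = 0.00777); the DESeq2 Wald test did not call it (adjusted p = 0.16).

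Hoxb9 had 40.9, 26.1, 35.2 and 18.1 CPM in GFP-high cells of that part, against 26.4, 15.6, 16.1 and 9.56 CPM in GFP-negative cells. The fractions overlapped, while GFP-high was the higher one within each of the 4 library numbers. Its log2 difference was 0.83 ± 0.27 (adjusted p = 0.00865), and the call ended when GFP-high replicate 1 (adjusted p = 0.0552) or replicate 4 of GFP-negative (adjusted p = 0.0541) was left out, and in a fit of the compared groups alone (adjusted p = 0.0677). Hoxb5 was higher by 1.47 ± 0.61 (adjusted p = 0.0388), at 6.84 against 2.47 CPM with overlap. That call ended without GFP-high replicate 1 or 3 (adjusted p = 0.135 and 0.067), without GFP-negative replicate 2, 3 or 4 (adjusted p = 0.0614, 0.136 and 0.115), and with DESeq2 size factors (adjusted p = 0.0596); with GFP-negative replicate 1 left out it was 2.23. Hoxb7 was called without that library (1.74, adjusted p = 0.0245), in a fit of the compared groups alone (adjusted p = 0.042) and with the newer method (adjusted p = 0.000477). Hoxb2 had 29 counts against 0, at least 2.34-fold higher with all libraries. Without GFP-high replicate 1 its mean fell below the floor of 3 counts per library and no bound was left. That setting did not call Hoxb2 (adjusted p = 0.0684), nor did the newer method (adjusted p = 0.0737).

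**Figure D4:**
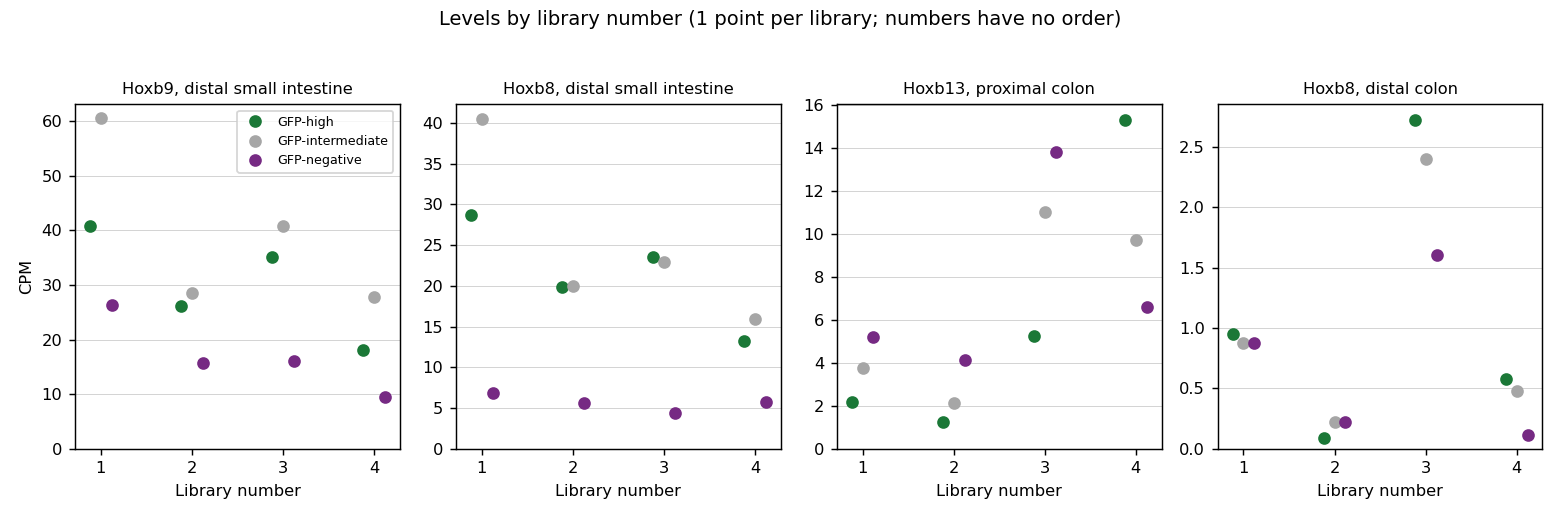
CPM by library number (numbers have no order) for Hoxb9 and Hoxb8 in the distal small intestine, Hoxb13 in the proximal colon and Hoxb8 in the distal colon, 1 point per library, coloured by GFP fraction. Within each number of the distal small intestine the GFP-high point of Hoxb9 and Hoxb8 lies above the GFP-negative point, and number 3 holds the highest Hoxb8 values of the distal colon in all 3 fractions.

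In the proximal colon 0 of 9 members were called between GFP-high and GFP-negative cells, where 25.3% of all genes were, 11.3% higher and 14% lower. At an unadjusted p under 0.05 edgeR also gave 0, and the DESeq2 Wald test called 0. Hoxb9 averaged 119.9 ± 9.11 and 131.0 ± 6.86 CPM there, and Hoxb8 79.4 ± 5.10 and 64.4 ± 23.7 CPM (SD, n = 4 each). Without GFP-high replicate 4, Hoxb13 was called lower in GFP-high cells (-1.27, adjusted p = 0.0248), against -0.30 ± 0.47 (adjusted p = 0.709) with it.

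In the distal colon 2 of 9 were called, 1 higher and 1 lower, where 25.1% of all genes were, 11.2% higher and 13.9% lower. Hoxb4 was lower in GFP-high cells, with 0, 0, 0.175 and 0.0726 CPM, against 0.497, 0.306, 0.264 and 0.293 CPM in GFP-negative cells. The fractions did not overlap, at 22 against 119 counts, and the log2 difference was -2.38 ± 0.75 (adjusted p = 0.0141). The call ended without GFP-high replicate 1 (adjusted p = 0.0611) or 2 (adjusted p = 0.0539), and the difference was -3.71 without replicate 3. Hoxb2 had 24 counts in 1 GFP-high library and 0 in GFP-negative cells, and it was not called without GFP-negative replicate 1, 2 or 3 (adjusted p = 0.0519, 0.0529 and 0.0509). Hoxb13 averaged 232 ± 41.1 CPM in GFP-high, 312 ± 7.01 in GFP-intermediate and 331 ± 52.0 in GFP-negative cells, and its GFP-high against GFP-negative difference of -0.51 ± 0.46 was not called (adjusted p = 0.455). A fit of the compared groups alone called Hoxb13 lower (-0.52, adjusted p = 0.0276) and no longer called Hoxb4 (adjusted p = 0.127), and the newer method called neither Hoxb4 (adjusted p = 0.0855) nor Hoxb2 (adjusted p = 0.14).

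In the proximal and middle small intestine the called members lay below 1 CPM on average. In the proximal part 2 of 9 were called, both higher in GFP-high cells, where 47.1% of all genes were called, 22.5% higher and 24.6% lower: Hoxb6 at 0.407 against 0.0465 CPM (3.08 ± 1.02, adjusted p = 0.0107) and Hoxb3 at 0.345 against 0.0491 CPM (2.99 ± 1.14, adjusted p = 0.0265). In the middle part 2 of 9 were higher, where 48.3% of all genes were called, 22.7% higher and 25.6% lower: Hoxb5 at 0.179 against 0.0335 CPM (2.36 ± 0.94, adjusted p = 0.0342) and Hoxb7 at 0.429 against 0.114 CPM (1.91 ± 0.76, adjusted p = 0.0348). Without middle GFP-high replicate 4 neither Hoxb5 nor Hoxb7 was called there (1.36 and 1.25, adjusted p = 0.304 and 0.225). Hoxb5 was also lost without GFP-negative replicate 2, 3 or 4 (adjusted p = 0.0898 to 0.105) and came to 6.94 without replicate 1, and Hoxb7 was lost without GFP-high replicate 1 and GFP-negative replicate 2 or 3 (adjusted p = 0.0706 to 0.122). In the proximal part Hoxb3 lost its call without GFP-high replicate 1 (adjusted p = 0.1) and without GFP-negative replicate 1, 3 or 4 (adjusted p = 0.0799 to 0.0843). Without GFP-negative replicate 2 it came to 7.80, and Hoxb6 to 5.06 without GFP-negative replicate 4. The newer method called neither Hoxb6 (adjusted p = 0.0813) nor Hoxb3 (adjusted p = 0.0831) there. Both calls also ended without the libraries numbered 1 (Hoxb6 2.28, adjusted p = 0.14, and Hoxb3 2.01, adjusted p = 0.226). Hoxb2 in the middle part was called in the fit with the replicate block (4.80, adjusted p = 0.0428), at 11 counts against 0, and in the proximal part without GFP-negative replicate 1 (6.25, adjusted p = 0.0116).

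Leukocyte markers, all 10 detected in each fraction, and enteroendocrine markers moved with the GFP gate. Summed enteroendocrine markers were 72.2 to 376 CPM in GFP-high and 309 to 11570 CPM in GFP-negative libraries, and leukocyte sums had medians of 17.1 and 401 CPM. The part of these cells in the differences between fractions was not tested.

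Between GFP-high and GFP-intermediate cells of the colon 1 of 9 members was called, where 12% of all genes were, 4.83% higher and 7.2% lower. Hoxb4 was lower in GFP-high cells (log2 difference -1.38 ± 0.48, adjusted p = 0.0469), with 0.0619 and 0.352 CPM in the distal and 11.6 and 14.7 CPM in the proximal colon. The call ended without a filter on low counts (adjusted p = 0.0596), by the newer method (adjusted p = 0.0814) and when any of 13 of the 16 libraries was left out (adjusted p = 0.0526 to 0.111). The exceptions were distal colon GFP-high replicate 3, without which the difference was -2.05, distal colon GFP-intermediate replicate 2 and proximal colon GFP-high replicate 4. In the small intestine 0 of 9 were called between these fractions, where 23.9% of all genes were, 10.4% higher and 13.4% lower, with 0 at an unadjusted p under 0.05 and 0 by DESeq2.

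The difference between GFP-high and GFP-negative cells was itself compared between organs and parts. It differed between colon and small intestine for 1 of 9 members, where 32.2% of all genes were called, 14.5% higher and 17.7% lower. For Hoxb5 the colon difference minus the small intestinal one was -2.54 ± 0.95 on the log2 scale (adjusted p = 0.0335). The newer method did not call it (adjusted p = 0.203). The call also ended without distal colon GFP-negative replicate 1 (adjusted p = 0.0755), middle small intestine GFP-high replicate 4 (adjusted p = 0.0674) and proximal small intestine GFP-high replicate 1 (adjusted p = 0.072) or replicate 3 of its GFP-negative cells (adjusted p = 0.0501), and the value was -4.07 without middle small intestine GFP-negative replicate 1. Hoxb3, Hoxb4 and Hoxb6 were each called without 1 or 2 of the libraries (adjusted p = 0.0148 to 0.0435). Between the colon parts and between the distal and proximal small intestine 0 of 9 members differed, where 0.616% and 3.54% of all genes did; at an unadjusted p under 0.05 there was 1 each, Hoxb2, and DESeq2 called 0.

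The other genes of the interval varied in different ways. Gm53, the noncoding RNA gene on the Hoxb13 side of Hoxb9, had 28.5, 18.04, 27.9 and 17.8 CPM in the distal small intestine, 93.9, 108, 107 and 130.1 CPM in proximal colon, and 98.5, 113, 76.9 and 91.9 CPM in the distal colon of GFP-high cells. The colon parts overlapped (log2 difference -0.21 ± 0.36 distal over proximal, adjusted p = 0.88), and all colon libraries lay above the distal small intestine. Gm53 was at least 516-fold higher in the distal than in the proximal small intestine, where it had 0 counts. Reads within the Mir196a-1 gene averaged 1.54, 7.44 and 5.93 CPM in the same 3 parts; they may belong to a longer transcript and do not measure the mature microRNA.

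Hoxb5os, antisense to Hoxb5 and Hoxb6, fell with the genes around it in the distal colon, at 0.0531 against 4.89 CPM in GFP-high cells (-6.44 ± 0.97, adjusted p = 2.34e-06). Ttll6, a tubulin glutamylase gene that neighbours Hoxb13 outside the cluster, averaged 60.6 ± 14.1 CPM in the distal and 33.8 ± 5.72 CPM in the proximal colon of GFP-high cells (adjusted p = 0.217). It averaged at most 0.455 CPM in the distal small intestine. Skap1, a T cell adaptor gene next to Hoxb1, was at 0.0321 to 0.214 CPM in GFP-high and 3.31 to 12.1 CPM in GFP-negative cells of the distal small intestine and the colon parts.

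**Figure D5:**
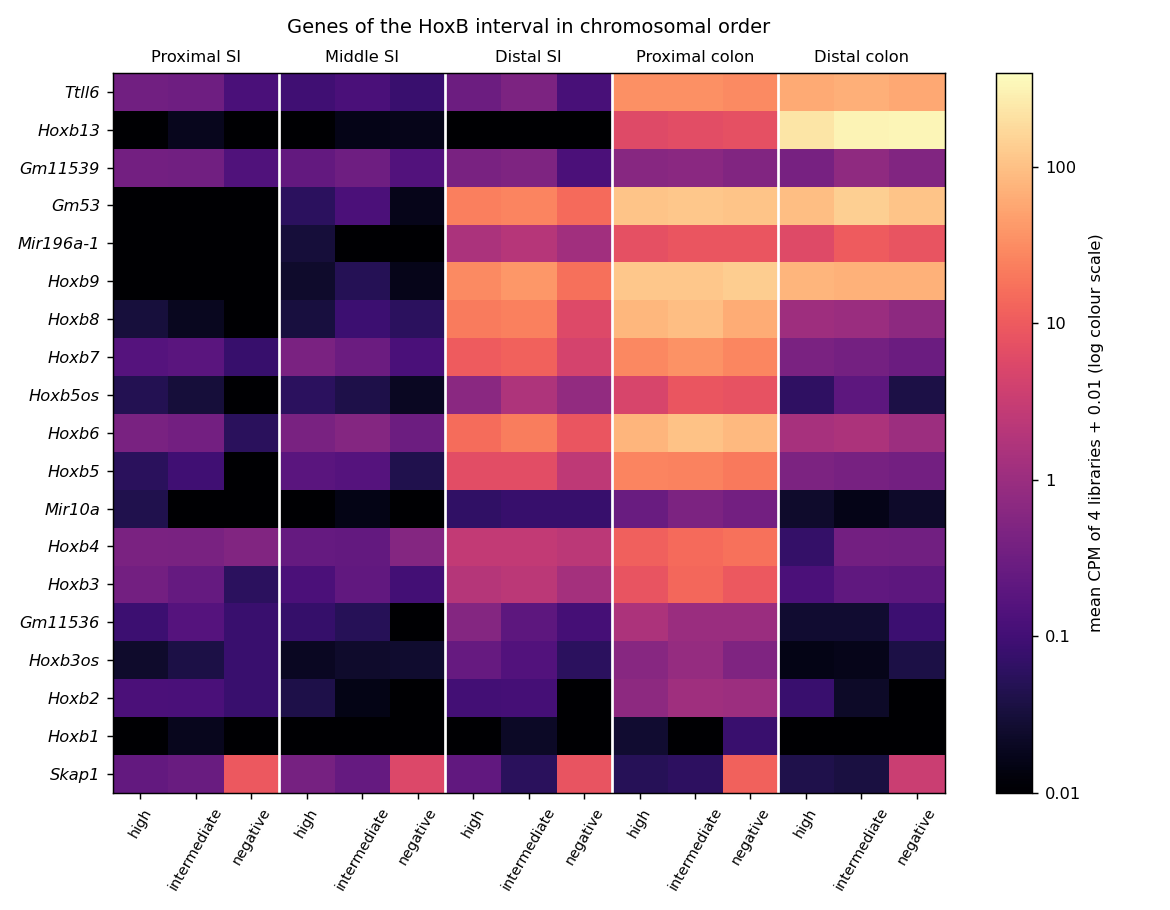
Mean CPM (plus 0.01, log colour scale) of the genes of the HoxB interval, in chromosomal order from Ttll6 to Skap1 down the page, in the 15 groups. The Hox genes from Hoxb8 to Hoxb2 are each brightest in the proximal colon and darker in the distal colon, while Hoxb9, Mir196a-1 and Gm53 stay bright in both.

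The genes whose group means were most like a member's were often its neighbours. Over the 15 group means of log2 CPM, Pearson's r was 0.997 between Hoxb9 and Gm53 and 0.985 between Hoxb9 and Mir196a-1, and the next was Klf12, a zinc finger factor gene, at 0.97. Hoxb6 was most like Hoxb5 (r = 0.984), Hoxb7 most like Hoxb5os (0.977), and Hoxb8 most like Hoxb5 (0.971). For Hoxb13, 2 genes listed by identifier came first, followed by Tgm3, an epithelial transglutaminase gene (0.997). For Hoxb4 it was Mgll, the monoglyceride lipase gene (0.947), for Hoxb3 Hoxb5os (0.947), and for Hoxb2 Gm11915 (0.915). Group means share library preparation, depth scaling and GFP gate, so these values are descriptions.

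Genes of the other Hox clusters and genes that work with or upstream of Hox genes were counted from lists. In GFP-high cells 11 of 11 HoxA and 5 of 9 HoxD genes were higher in colon than in small intestine and 0 lower, where 20.9% of all genes were higher and 21.3% lower. Between the colon parts, Hoxa13 averaged 57.2 CPM in the distal and 12.3 CPM in the proximal part (2.22 ± 0.21, adjusted p = 4.99e-08), and Hoxd13 94.9 and 0.182 CPM. Of the caudal genes, which activate posterior Hox genes, Cdx2 averaged 95.4 CPM in the distal and 284 CPM in the proximal colon (-1.57 ± 0.29, adjusted p = 7.63e-05), while Cdx1 was not called at 286 and 250 CPM.

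Retinoic acid, made by aldehyde dehydrogenases, induces genes of the head side of Hox clusters. Of 13 tested genes of its handling and receptors, 3 were lower in the distal than in the proximal colon of GFP-high cells and 0 higher, where 4.05% of all genes were lower and 3.74% higher. Aldh1a1 averaged 15.8 against 94.8 CPM (-2.58 ± 0.33, adjusted p = 3.64e-08), the receptor gene Rarg 10.1 against 21.1 CPM and the retinol dehydrogenase gene Rdh10 16.8 against 25.9 CPM. None of 17 Polycomb genes, which silence Hox clusters, of 11 Trithorax and demethylase genes, or of 11 genes of the TALE class of Hox partners was called in that comparison by edgeR, and at an unadjusted p under 0.05 there were 1 Polycomb, 0 Trithorax and demethylase and 4 TALE genes. Along the small intestine the TALE gene Meis2 was lower in the distal than in the proximal part of GFP-high cells, at 0.0624 against 5.46 CPM. Of the 13 retinoic acid genes, 3 were lower and 1 higher in that distal part, where Hoxb4 to Hoxb9 were higher. Aldh1a1 was lower there, at 15.25 against 38.36 CPM (-1.33, adjusted p = 0.00251), and Rarg was higher, at 1.517 against 0.6369 CPM. A link between the genes of these lists and the HoxB levels was not tested.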

How the data were processed

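The authors deposited whole, unnormalised counts per gene and library in 1 table, and these counts were the measurement used. The tools named in the submitters' processing notes are STAR, featureCounts of Subread, and edgeR, and the build is mm10; versions, library kit, strand setting and annotation release are not given in the sources used here. The deposited table also gives a gene length in bases, used for RPKM, and a batch number, in 60 of 60 libraries the same as the replicate number. Its 5 derived value columns were not used. Rows were assigned to libraries by their names in the table, and groups were taken from the labels. Only 35 gene identifiers match GENCODE M21 with their version and 52081 without, so coordinates come from that annotation and not from the authors' one.

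edgeR's filterByExpr, applied with the 15 groups, kept 23360 genes, which hold 99.97% to 99.99% of the counts of a library. After TMM scaling, edgeR 4.0.16 fitted all 60 libraries together by quasi-likelihood (default glmQLFit; residual degrees of freedom 45, prior 5.43), in R 4.3.3 with limma 3.58.1. The 18 comparisons were tested two-sided with Benjamini-Hochberg adjustment over all genes within a comparison, and a gene with an adjusted p below 0.05 was called. Standard errors are the log2 difference over the square root of its F statistic. Where 1 side had no count, the ratio is a bound against 3 counts per library, which covers counting error only. The edgeR fit was also run on simulated counts with known changes, for distal over proximal colon in GFP-high cells.

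The members, gene lists and tests were chosen with earlier results of these data known. Named genes are all members, Lgr5, the genes of the interval, the 3 genes most alike to each member, and up to 3 genes per list with the smallest p; a selection is printed. As alternatives, scaling used DESeq2 size factors, the filter on low counts was dropped, and the other settings were the Wald test of DESeq2 1.42.0, the replicate block, a fit of the compared groups alone, glmQLFit's newer method, a log2 difference of at least 1 in addition, each library left out (with the dispersion trend of all libraries), and all libraries numbered 1 left out. The main fit held no term for the replicate number, which the deposited table gives as a batch number. Only the fit with the replicate block took libraries of the same number as belonging together. What a number stands for is not stated. As a check, deviations from the group means over 9732 genes correlated at 0.157 on average over 420 pairs of libraries with the same number and at -0.049 over 1260 pairs with different numbers.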

Additional observations from a re-analysis of the deposited data

Results flagged for a closer look

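In 6 of 57 levels of at least 1 CPM on average, 1 library stood apart from the other 3 by Dixon's test at its 95% critical value, where chance alone flags about 1 in 20 groups. Hoxb3 stood apart at 13.8 CPM in replicate 4 of proximal colon GFP-high and at 2.09 CPM in replicate 2 of distal small intestine GFP-high, a group whose other libraries lay within 1.91 to 1.93 CPM. Hoxb6 was at 33.8 CPM in replicate 4 of proximal colon GFP-negative, against 95.1 to 104 CPM in the others, and Hoxb8 at 133.8 CPM in replicate 2 of proximal colon GFP-intermediate. In the distal small intestine, replicate 1 stood apart with 11.7 CPM of Hoxb5 in GFP-intermediate and 8.41 CPM of Hoxb7 in GFP-negative cells.

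The difference between GFP-high and GFP-negative cells itself differed between the organs for Hoxb5, with a log2 interaction of -2.54 (edgeR, adjusted p = 0.0335). GFP-high was the higher fraction of the small intestine in the middle and distal parts at 0.179 against 0.0335 CPM and 6.84 against 2.47 CPM. In the colon the means were 26.1 against 20.7 CPM in the proximal and 0.449 against 0.343 CPM in the distal part. The fractions overlapped in each of these 4 parts. The proximal small intestine also enters the interaction. There Hoxb5 averaged 0.0462 CPM in GFP-high cells and had 0 counts in GFP-negative cells, so its log2 difference rests on few counts.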

How the results depend on the processing

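Of 3329 alternative values of 156 member differences, 3206 kept their side of the threshold, 83 lost a call, 40 gained one and 0 called values changed sign. In 100 neither value was called and the sign differed. Alternatives that gave a member no value are not among the 3329. Calls lost because a fit's own filter removed the member are therefore not among the 83. All 750 alternative levels stayed within 1 SD. A mean of 4 libraries cannot move by more than that when 1 is left out. Only the DESeq2 size factors could therefore have moved a level. The replicate block changed the 5 calls named above, 4 of them of Hoxb2, and no other. With libraries left out in turn, members called ranged in GFP-high cells from 6 to 7 for colon over small intestine, 7 to 8 for distal over proximal colon, 6 to 6 for distal over proximal small intestine and 4 to 8 for proximal colon over distal small intestine. In GFP-negative cells the same ranges were 8 to 8, 9 to 9, 6 to 8 and 9 to 9. For GFP-high over GFP-negative they were 1 to 2, 0 to 2 and 1 to 5 in the small intestine (proximal, middle, distal) and 0 to 1 and 0 to 2 in the colon (proximal, distal). They were 0 to 1 for GFP-high over GFP-intermediate in the colon and 0 to 2 for the organ interaction, and 0 throughout for the small intestine and the part interactions.

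In a fit of the compared groups alone, 5 members were called in place of 8 for distal over proximal small intestine in GFP-negative cells. For GFP-high over GFP-negative that fit called 0, 0 and 2 along the small intestine and 1 in the distal colon, Hoxb13, which was not called with all groups. The newer quasi-likelihood method called 0 and 1 in the proximal and middle small intestine, and 0 in the distal colon, for GFP-high over GFP-intermediate in the colon and for the organ interaction. Without the libraries numbered 1 the counts were 1 in the proximal small intestine, 0 in the distal colon and 0 for GFP-high over GFP-intermediate in the colon, where the fit without a filter also called 0. The 1 in the proximal small intestine was Hoxb2 (6.57, adjusted p = 0.000944), while Hoxb3 and Hoxb6 lost their calls. The DESeq2 Wald test called 2 in the distal small intestine.

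Over all genes, GFP-high against GFP-intermediate in the colon gave 2811 calls, but 71 without the libraries numbered 1, 4820 with the compared groups alone and 1101 at the lowest with 1 library left out. Distal over proximal small intestine in GFP-high cells gave 2759, 1193, 4996 and 1590 in the same order. The compared groups alone gave 1709 in place of 3168 and 1080 in place of 3636 for distal over proximal colon and small intestine in GFP-negative cells, 4233 in place of 8212 for proximal colon over distal small intestine and 2899 in place of 5912 between the fractions of the proximal colon. The colon part interaction gave 144, and 52 to 275 under the alternatives; that of the small intestine 826, and 235 to 1306. GFP-high over GFP-intermediate in the small intestine gave 5575, and 3408 without the libraries numbered 1. Asking also for a log2 difference of 1 left 1181 of 1821 genes for distal over proximal colon and 4564 of 9847 for colon over small intestine in GFP-high cells.

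Levels below about 1 CPM rest on few counts, so depth limits the comparisons within the proximal and middle small intestine and the lower levels of the distal colon. Bounds against a floor of 3 counts cover counting error only.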
